A study of Mus musculus with 12 samples.

Results

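Endothelin and the renin-angiotensin system are peptide hormone systems of the vessel wall, and 10 genes of them are described here. They are the endothelin ligand gene Edn1, its converting enzyme Ece1 and the receptor genes Ednra and Ednrb, and, of the angiotensin system, the precursor Agt, the peptidases Ace, Enpep and Mme, and the receptor genes Agtr1a and Agtr2. They were found by symbol among the 22013 genes of the deposited table; each symbol had 1 entry, and all 10 were among the 13928 genes that passed the filter on low counts. The libraries are RNA-seq of cells isolated as aortic endothelial cells from mice, and every mouse in all 4 groups had received an angiotensin II infusion. Wild-type (WT) mice and Glra2 global knockout (KO) mice, which lack the α2 subunit of the glycine receptor throughout the body, were given either saline or glycine intraperitoneally, with 3 libraries a group. The glycine dose was 800 mg/kg/day, except that KO glycine library 5 is labelled 80. Ages, sex and the number of aortas per library are not given in the labels, and there is no group without angiotensin II. Nothing in the labels states whether libraries of 1 group are from different animals, so the p-values measure the spread between these libraries, which may be technical.

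In the endothelin system, cells secrete a precursor that endothelin-converting enzyme cuts to endothelin-1, a potent vasoconstrictor peptide made by endothelium. Receptor A on smooth muscle mediates constriction, while receptor B on endothelium releases nitric oxide and clears the ligand. In the renin-angiotensin system, renin cuts angiotensinogen to angiotensin I and angiotensin-converting enzyme cuts that to angiotensin II, which acts through the type 1 receptor to constrict vessels and raise blood pressure. The type 2 receptor is known for opposing several of these effects.

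The estimated counts of a library summed to between 14.5 M and 24.3 M, and 26.9 to 64.7% of them came from mitochondrially encoded genes. That share moved with group: it was 49.96, 64.7 and 52.1% in WT saline 1 to 3, 38.5, 30.6 and 36.4% in WT glycine 4 to 6, 50.4, 34.8 and 34.4% in KO saline 1 to 3, and 28.8, 26.9 and 36.2% in KO glycine 4 to 6. Pearson's r of log2 CPM ran from 0.852 to 0.917 for libraries of the same group and from 0.818 to 0.886 for libraries of different groups. Glra2 had 0 counts in all 12 libraries, WT included, so the genotype labels could not be checked on it. The labelled cell type was measurable: all 12 endothelial markers had counts in every library. Their summed level, 297 to 967 CPM, was below that of 10 fibroblast markers, 8611 to 27906 CPM, and 8 macrophage markers, 3375 to 18294 CPM. Single genes carry much of these sums: Dcn had a mean of 8977 CPM in WT saline and Lyz2 of 11767 CPM in KO saline. The sums therefore do not rank the cell types by amount. In such bulk libraries fewer cells of a type and less RNA per cell cannot be told apart.

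Both receptor genes changed with genotype under saline, in opposite directions, so the 250 bases before their RefSeq starts are printed here (assembly GRCm38.p6, gene strand, 5′ to 3′). Ednra lies on the minus strand at chr8:77724453-77724702 and Ednrb on the minus strand at chr14:103843702-103843951.
Ednra: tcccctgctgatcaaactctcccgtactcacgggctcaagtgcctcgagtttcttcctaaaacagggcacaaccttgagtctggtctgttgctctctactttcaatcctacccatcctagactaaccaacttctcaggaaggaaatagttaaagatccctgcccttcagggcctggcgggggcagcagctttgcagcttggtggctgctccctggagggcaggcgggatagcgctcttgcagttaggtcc
Ednrb: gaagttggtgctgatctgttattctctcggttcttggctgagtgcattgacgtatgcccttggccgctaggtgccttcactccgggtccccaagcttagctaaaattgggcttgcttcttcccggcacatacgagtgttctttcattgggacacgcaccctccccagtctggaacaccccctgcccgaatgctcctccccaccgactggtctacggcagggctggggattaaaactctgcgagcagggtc
On both strands 5 motifs were searched. GATAA is a core bound by the Gata transcription factors and TGANTCA one bound by AP-1. The letters GAGGAA are bound by Ets factors such as PU.1, while GGGCGG is the GC box and TATAAA the start-site box of that name. None of these letters occurs in either window, which is why no base is in capitals. Among all 32851 RefSeq windows of this length, 22.6% hold the Gata letters, 6.75% the AP-1 letters, 23.3% the Ets letters, 32.7% the GC box and 12.4% the start-site box. The absence says only that these letters are not in these windows. RefSeq windows were matched for 9 of the 10 genes, all but Agtr1a.

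Per length, the most abundant of the 10 transcripts was Ece1, with a mean level of 37.0 FPKM over the 12 libraries (range 17.8 to 62.7). Ednrb followed at 26.2 FPKM (4.53 to 39.9), then Ace at 7.41 (2.48 to 13.0), Ednra at 4.61 (1.22 to 8.89) and Edn1 at 4.47 (1.08 to 7.91). Mme had a mean level of 3.34 FPKM (0.647 to 7.21), Agtr1a of 2.12 (0 to 4.49), Enpep of 2.07 (0.711 to 4.33), Agt of 0.808 (0 to 2.0) and Agtr2 of 0.162 (0 to 0.855). The ranges of neighbours in this order overlap in every case, while those of Ece1 and Ace do not. Within each library, though, Ednrb was above its neighbour Ace, such as at 4.53 against 3.9 FPKM in WT saline 2. Ece1 stood above 90.7% of the 16949 genes with any FPKM, and Agtr2 above 18.8%.

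**Figure D1:**
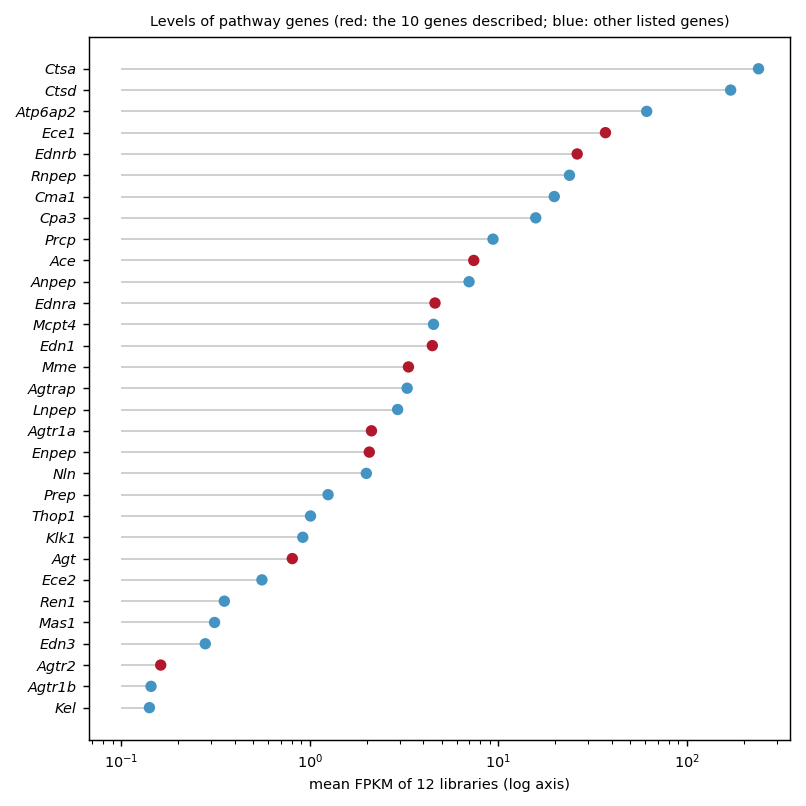
Mean FPKM over the 12 libraries on a log axis for the 31 endothelin and renin-angiotensin genes at 0.1 FPKM or more; red points are the 10 genes described, blue points other genes of the pathway. Ece1 (37.0) and Ednrb (26.2) lead the 10, and Agtr2 (0.162) is lowest.

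Across the 5 comparisons, the edgeR quasi-likelihood test made 6 calls, all in the endothelin genes Ednra, Ednrb and Ece1. For glycine against saline in WT 1 of the 10 genes passed, Ednrb (higher), against 1.39% of all tested genes called. In KO glycine changed none of the 10 in edgeR or DESeq2, with 0 below 0.05 before adjustment, against 1.13% of all tested genes called. For KO against WT, 3 passed under saline (Ednrb higher, Ednra and Ece1 lower), where 11.3% of all tested genes were called. Under glycine 1 passed (Ednra lower), against 2.56%. The glycine by genotype interaction, the glycine effect in KO minus that in WT, passed for 1 gene (Ednrb, negative), against 1.12%. Before adjustment, 1669 and 1540 of all 13928 tested genes were below 0.05 for glycine in WT and KO. For KO under saline and under glycine 3268 and 1919 were, and for the interaction 1823. The median log2 fold change of the 10 genes was 0.12 and 0.59 for glycine in WT and KO, and −0.90 and −0.33 for KO under saline and glycine. The medians over all tested genes lay between −0.02 and 0.02; that under saline, −0.90, stayed at −0.90 with Agtr2, which had 0 counts in a whole group, set to its bound.

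**Figure D2:**
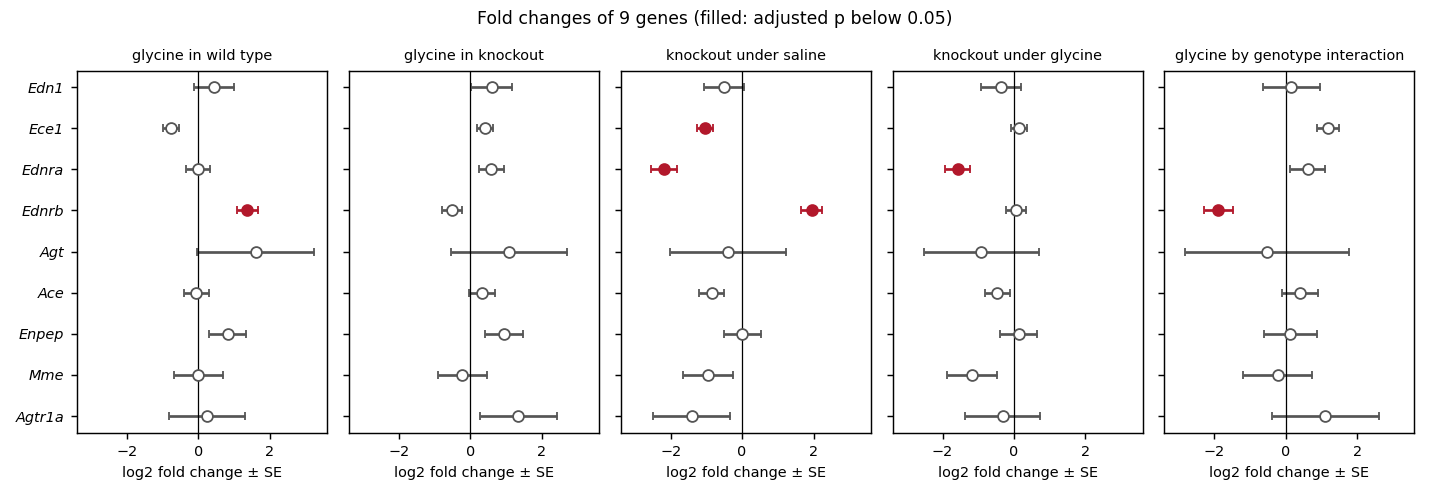
Log2 fold changes (x axis, ± SE) of 9 genes in the 5 comparisons; filled red points have an adjusted p below 0.05. Agtr2 is not drawn because it had 0 counts in KO saline. Ednra lies to the left in both genotype panels, and Ednrb to the right for glycine in WT and KO under saline.

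Edn1 encodes the endothelin-1 precursor. Its level, in CPM (counts scaled by TMM to a common library total, used from here on to compare 1 gene between libraries), was 6.60, 4.27 and 15.7 in WT saline 1 to 3 and 8.75, 14.1 and 13.4 in WT glycine 4 to 6. It was 8.26, 2.29 and 8.21 CPM in KO saline 1 to 3 and 7.21, 13.8 and 7.35 in KO glycine 4 to 6. In each of the 4 pairwise comparisons the groups overlapped; WT saline 3 and WT glycine 5 were high, and KO saline 2 was low. With glycine the log2 fold change was 0.44 ± 0.56 SE in WT (adjusted p = 0.868) and 0.60 ± 0.56 in KO (0.832). Between genotypes it was −0.51 ± 0.56 under saline (adjusted p = 0.685) and −0.35 ± 0.56 under glycine (0.888). Without WT saline 3 the value under saline turned to 0.22 and that of glycine in WT rose to 1.18.

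Ece1, the endothelin-converting enzyme, was lower in KO than in WT under saline. Its level was 209, 223 and 320 CPM in WT saline 1 to 3 and 140, 83.9 and 142 CPM in KO saline 1 to 3. The highest KO saline library lay below the lowest WT saline library. Its log2 fold change was −1.04 ± 0.22 SE (adjusted p = 0.00606), and it passed without any 1 of the 12 libraries. With limma-trend on the authors' FPKM it was −0.80 (pseudocount 1, adjusted p = 0.0572) and −0.82 (pseudocount 0.1, 0.0593). The median over all tested genes was 0.15 and 0.25 in these fits, against −0.02 in edgeR.

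Under glycine Ece1 was at 160, 143 and 137 CPM in WT 4 to 6 and at 175, 129 and 180 CPM in KO 4 to 6. These groups overlapped, with a log2 fold change of 0.14 ± 0.22 SE (adjusted p = 0.886). Within WT, all 3 glycine libraries were below all 3 saline libraries, but the log2 fold change of −0.78 ± 0.22 SE missed the threshold (adjusted p = 0.119). In KO glycine and saline libraries overlapped, and the log2 fold change was 0.40 ± 0.22 SE (adjusted p = 0.548). The interaction of 1.18 ± 0.31 SE also missed it (adjusted p = 0.0886), while DESeq2 called both the WT difference (−0.78, adjusted p = 0.0258) and the interaction (1.19, 0.0131). With limma-trend on FPKM the WT difference was −0.24 (pseudocount 1, adjusted p = 0.614) and −0.25 (pseudocount 0.1, 0.618). In these fits the median over all tested genes was 0.31 and 0.44, against 0 in edgeR.

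The 12 endothelial markers moved beside Ece1. Their summed level was 635 to 967 CPM in WT saline, 384 to 532 in WT glycine, 297 to 507 in KO saline and 341 to 518 in KO glycine. For KO under saline 3 of the 12 passed, all lower, and none of the 12 was at 0 in any library. Per 1000 CPM of these markers, Ece1 was at 315 to 331 CPM in WT saline, 268 to 416 in WT glycine, 275 to 389 in KO saline and 337 to 380 in KO glycine. On that scale WT saline and KO saline overlapped; the part of the markers in the Ece1 difference was not tested. This and the 3 ratios to markers below were chosen after the values were seen.

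Ednra, the receptor that mediates constriction in smooth muscle, was lower in KO than in WT under both treatments. Its level was 34.1, 14.8 and 30.1 CPM in WT saline 1 to 3 and 31.6, 26.1 and 20.6 CPM in WT glycine 4 to 6. It was 5.37, 5.76 and 6.21 CPM in KO saline 1 to 3 and 6.42, 8.64 and 11.2 CPM in KO glycine 4 to 6. All 6 KO libraries lay below all 6 WT libraries, and WT saline 2 was the lowest of the WT ones. The log2 fold change was −2.19 ± 0.36 SE under saline (adjusted p = 0.000915), a 4.56-fold lower level, and it passed in every alternative run. Under glycine it was −1.58 ± 0.35 SE (adjusted p = 0.0262). This second call was lost without WT glycine 4, 5 or 6 or KO glycine 4 or 5 (up to adjusted p = 0.123, without KO glycine 4) and with both FPKM fits (−1.23, 0.0692; −1.47, 0.101). Without KO glycine 5, the library labelled with the lower dose, it was −1.57 (adjusted p = 0.102).

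Glycine did not change Ednra at the threshold in either genotype. The log2 fold change was −0.02 ± 0.34 SE in WT (adjusted p = 0.998), where the groups overlapped. In KO it was 0.59 ± 0.35 SE (adjusted p = 0.595), with all 3 glycine libraries above all 3 saline libraries. Such separation held for 3 of the 10 genes in this comparison, against 21% of all tested genes. The interaction was 0.61 ± 0.49 SE (adjusted p = 0.683).

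Fibroblast markers moved beside Ednra. The summed level of 10 of them was 18600 to 27906 CPM in WT saline, 19999 to 21213 in WT glycine, 8611 to 10786 in KO saline and 11258 to 13537 in KO glycine. For KO against WT, 9 of the 10 passed as lower under saline and 3 under glycine. None was at 0 in any library. Smooth muscle markers summed to 138 to 241 CPM, 186 to 231 CPM, 63.5 to 90.8 CPM and 120 to 128 CPM in the same order of groups. Of these 9 markers, 3 passed as lower in KO under saline and 2 under glycine. Myocd, the myocardin gene, was at 0 in 4 libraries. Per 1000 CPM of the fibroblast markers, Ednra was at 0.794 to 1.29 CPM in WT saline and 0.498 to 0.709 in KO saline. The same ratio was 0.970 to 1.58 CPM in WT glycine and 0.571 to 0.824 in KO glycine. Neither genotype pair overlapped on that scale. Per 1000 CPM of the smooth muscle markers the saline pair overlapped, at 65.8 to 218 CPM in WT and 68.4 to 88.5 in KO. The glycine pair did not, at 111 to 139 CPM in WT and 50 to 92.7 in KO. Of the smooth muscle markers, Des had a mean of 15.1 CPM in WT glycine and 36.1 in KO glycine. Beside it, 6 heart muscle markers summed to 369 to 1069 CPM in WT glycine and 1720 to 2369 in KO glycine. The part of heart muscle in this ratio was not tested. Pericyte markers summed to 380 to 521 CPM in WT saline and 150 to 217 CPM in KO saline. Under glycine they summed to 289 to 307 CPM in WT and 155 to 249 CPM in KO. Of these 8 markers, 5 passed as lower in KO under saline. Under glycine 0 passed, with a median log2 fold change of −0.82. Ednra was not scaled to these markers. The part of any of these cell types in the Ednra difference was not tested.

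Ednrb, the receptor that on endothelium releases nitric oxide and takes up endothelin, was lowest in WT saline. Its level was 25.5, 22.0 and 53.6 CPM in WT saline 1 to 3 and 102, 75.3 and 85.4 CPM in WT glycine 4 to 6. It was 149, 109 and 134 CPM in KO saline 1 to 3 and 93.0, 107 and 74.9 CPM in KO glycine 4 to 6. Every other library was above every WT saline library, and every KO saline library was above every other one. For KO under saline its log2 fold change was 1.95 ± 0.29 SE (adjusted p = 0.000423), a 3.86-fold higher level that passed in every alternative run. With glycine in WT it was 1.37 ± 0.28 SE (adjusted p = 0.0256), a 2.59-fold higher level. That call was lost in each fit without WT saline 1 or 2 or WT glycine 4, 5 or 6 (up to adjusted p = 0.106, without WT saline 1). It was also lost with only these groups in the model (1.38, 0.139). The mitochondrial share was higher in each WT saline library than in each WT glycine library; with mitochondrially encoded genes left out before scaling, the value was 1.38 (adjusted p = 0.0241).

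In KO, Ednrb had a log2 fold change with glycine of −0.51 ± 0.28 SE (adjusted p = 0.547), with all glycine libraries below all saline libraries. Between genotypes under glycine the groups overlapped, at 0.06 ± 0.28 SE (adjusted p = 0.972), with a change of sign to −0.03 without WT glycine 5 and −0.06 without KO glycine 5. The interaction was −1.89 ± 0.40 SE (adjusted p = 0.0347). It passed without WT saline 2 or 3 or WT glycine 4, and it was lost without any other of the 12 libraries (up to adjusted p = 0.101, without KO glycine 6). Without KO glycine 5 it was −2.01 (adjusted p = 0.0617).

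Macrophage markers moved beside Ednrb. The summed level of 8 of them was 3375 to 5178 CPM in WT saline, 7857 to 8197 in WT glycine, 13480 to 18294 in KO saline and 8146 to 9181 in KO glycine. For glycine in WT 7 of the 8 passed as higher, for KO under saline 8 did, and in the interaction 7 passed as negative. None of the 8 was at 0 in any library. Lyz2 alone had a mean of 3034 CPM in WT saline and 11767 CPM in KO saline. The mean sums there were 4220 and 15452 CPM, so the ratio below is mostly to Lyz2. Per 1000 CPM of these markers, Ednrb was at 4.25 to 13.1 CPM in WT saline, 9.18 to 13.0 in WT glycine, 5.98 to 11 in KO saline and 8.16 to 13.1 in KO glycine. All 4 groups overlapped on that scale; the part of macrophages in the Ednrb difference was not tested. The 6 melanocyte markers, of a cell type that also uses Ednrb, summed to 4.06 to 17.5 CPM over all libraries, and 1 to 4 of them were at 0 in each library.

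**Figure D3:**
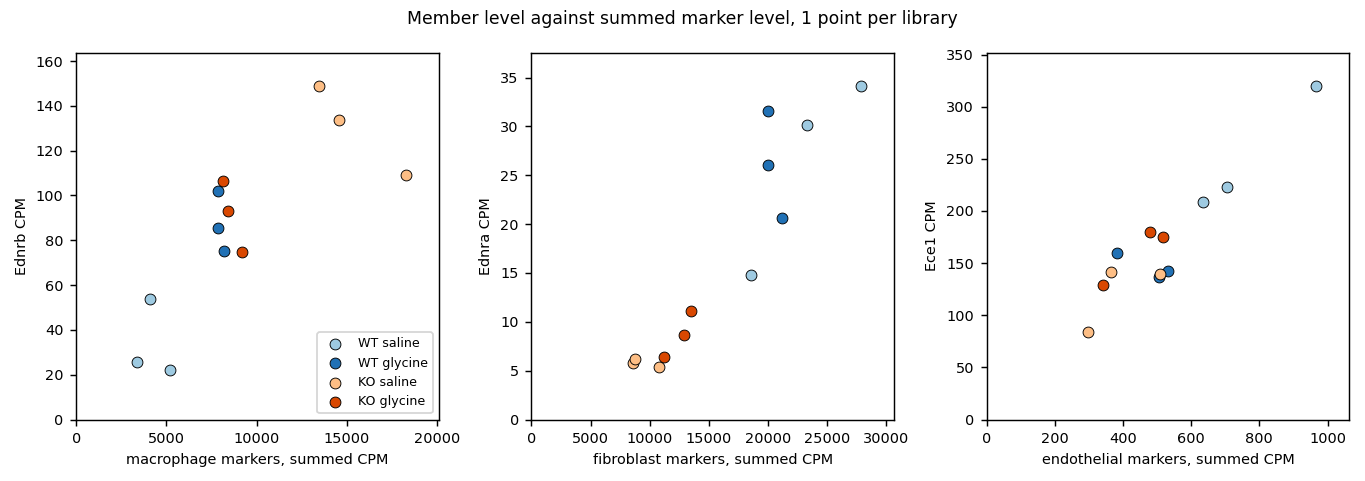
Level of Ednrb, Ednra and Ece1 (y axes, CPM) against the summed CPM of macrophage, fibroblast and endothelial markers (x axes), 1 point per library, coloured by group. Knockout saline lies at the upper right for Ednrb (109 to 149 CPM) and at the lower left for Ednra (5.37 to 6.21 CPM), and WT saline at the upper right for Ece1 (209 to 320 CPM).

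The ratio of the receptor genes to each other follows from these levels. Per length, the ratio of Ednrb to Ednra FPKM was 0.871, 1.73 and 1.96 in WT saline 1 to 3 and 3.37, 3.12 and 4.39 in WT glycine 4 to 6. It was 30.3, 20.7 and 22.3 in KO saline 1 to 3 and 15.1, 12.6 and 7.15 in KO glycine 4 to 6. No pair of groups overlapped, and the order ran from WT saline through WT glycine and KO glycine to KO saline. This ratio was also chosen after the values were seen and has no test. It divides genes that were called in opposite directions under saline. Macrophage markers moved beside Ednrb and fibroblast markers beside Ednra, and the part of these cells in the ratio was not tested.

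None of the 6 angiotensin genes passed in any comparison in edgeR or DESeq2. Before adjustment 1 was below 0.05, Ace for KO under saline, and 0 were in the other 4 comparisons. Of all 13928 tested genes, 3268 were below 0.05 for KO under saline.

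Agt, the angiotensinogen gene, was close to the detection limit, where 3 counts equal 0.118 to 0.279 CPM. Its estimated counts were 39, 0 and 3 in WT saline 1 to 3, 45, 66 and 36 in WT glycine 4 to 6, 16, 0 and 24 in KO saline 1 to 3, and 5, 34 and 48 in KO glycine 4 to 6. WT glycine was the only group with more than 30 counts in each library, and both genotype comparisons and both glycine comparisons overlapped in CPM.

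Ace, the angiotensin-converting enzyme, which makes angiotensin II, was at 32.5, 28.1 and 60.2 CPM in WT saline 1 to 3 and 14.4, 29.2 and 23.4 CPM in KO saline 1 to 3. The groups overlapped, with WT saline 3 the highest of all. It was at 22.9, 42.2 and 51.2 CPM in WT glycine 4 to 6 and 23.1, 32.6 and 28.5 CPM in KO glycine 4 to 6. The log2 fold change between genotypes was −0.85 ± 0.36 SE under saline (adjusted p = 0.157) and −0.47 ± 0.35 under glycine (0.663). Without WT saline 3 the value under saline was −0.42 (adjusted p = 0.580).

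Enpep, aminopeptidase A, which shortens angiotensin II to angiotensin III, was at 7.74, 5.67 and 3.32 CPM in WT saline 1 to 3 and 6.24, 7.43 and 15.8 CPM in WT glycine 4 to 6. It was at 8.05, 2.45 and 6.29 CPM in KO saline 1 to 3 and 10.4, 10.6 and 11.4 CPM in KO glycine 4 to 6. The KO glycine libraries were all above the KO saline ones, while the WT groups overlapped. With glycine the log2 fold change was 0.82 ± 0.52 SE in WT (adjusted p = 0.626) and 0.95 ± 0.52 in KO (0.559).

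Mme, neprilysin, which degrades natriuretic peptides, bradykinin and endothelin, was at 22.8, 20.4 and 4.0 CPM in WT saline 1 to 3 and 17.8, 17.5 and 11.6 CPM in WT glycine 4 to 6. It was at 14, 2.83 and 7.58 CPM in KO saline 1 to 3 and 2.08, 12 and 6.71 CPM in KO glycine 4 to 6. Each pair of groups overlapped, with single low libraries in 3 of the groups. Between genotypes the log2 fold change was −0.96 ± 0.69 SE under saline (adjusted p = 0.466) and −1.18 ± 0.69 under glycine (0.512). With a library of its own groups left out the former ran from −1.57 (without KO saline 1) to −0.55 and the latter from −1.83 (without KO glycine 5) to −0.75.

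Agtr1a, the type 1 angiotensin receptor, was at 2.22, 8.36 and 4.80 CPM in WT saline 1 to 3 and 9.29, 3.72 and 5.17 CPM in WT glycine 4 to 6. It was at 3.51, 2.29 and 0 CPM in KO saline 1 to 3 and 7.72, 1.84 and 5.07 CPM in KO glycine 4 to 6. In each of the 4 pairwise comparisons the groups overlapped. The log2 fold change was −1.41 ± 1.08 SE for KO under saline (adjusted p = 0.501) and 1.35 ± 1.08 for glycine in KO (0.765). Without KO saline 1 these values were −2.14 and 2.1, and without KO saline 3 they were −0.82 and 0.75. Its close paralog Agtr1b had 1 count in WT saline 1, 63.46 estimated counts in WT saline 3 and 4 in KO saline 1, and 0 elsewhere; reads shared by these paralogs may have been split between them, so both levels are uncertain.

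Agtr2, the type 2 angiotensin receptor, had 52 counts in WT saline 3, 22 in WT glycine 5, 39 in KO glycine 4 and 2 in KO glycine 5. It had 0 in the other 8 libraries, among them all 3 of KO saline. Since single libraries carry the counts of each group, no fold change is given.

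**Figure D4:**
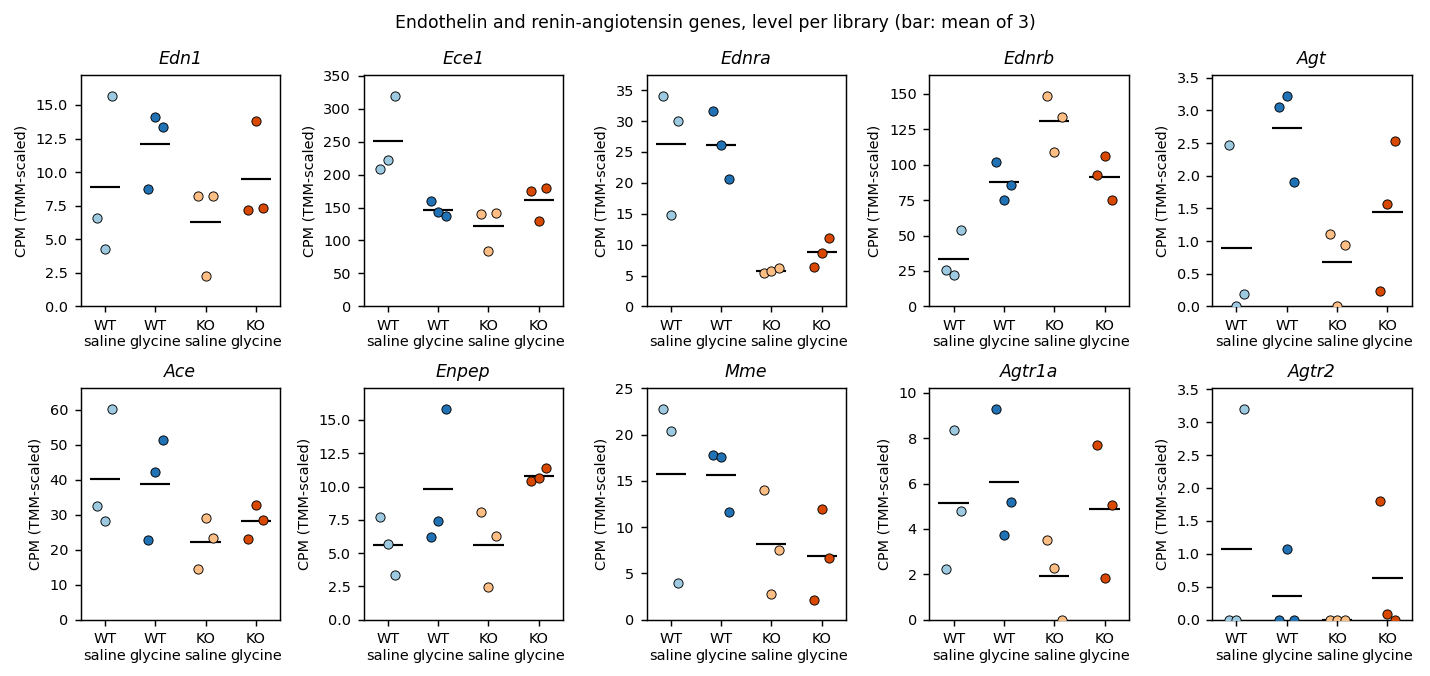
Level of each of the 10 genes (y axes from 0, CPM scaled by TMM, a scale of its own for each gene) in the 12 libraries, 3 points a group with a bar at the mean. The groups separate for Ednra by genotype and for Ednrb with WT saline lowest and KO saline highest, while most angiotensin genes overlap; for Agtr2 only 4 points lie above 0.

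Of 5 other endothelin genes (Edn2, Edn3, Ece2, Ecel1 and Kel), 2 were abundant enough to test, Edn3 and Ece2. Neither passed in any of the 5 comparisons in edgeR or DESeq2, with 0 below 0.05 before adjustment. Ece2, a second converting enzyme and the most abundant of the 5 per length (mean 0.558 FPKM), was at 2.54, 6.13 and 4.06 CPM in WT saline 1 to 3. Elsewhere it lay between 0 and 3.09 CPM, with 0 in 4 libraries.

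Of 22 other genes that make, trim or receive angiotensin peptides, 17 were tested. For KO under saline 3 passed as higher and 1 as lower, where 11.3% of all tested genes were called. The median log2 fold change of the 17 was 0.45, against −0.02 for all tested genes. Ctsa, cathepsin A, a lysosomal carboxypeptidase that can trim angiotensin I and the most abundant of the list (mean 240 FPKM), was at 258, 291 and 301 CPM in WT saline 1 to 3 and 760, 821 and 862 in KO saline 1 to 3. Its log2 fold change was 1.52 ± 0.14 SE (adjusted p = 9.05e-06). Ctsd, cathepsin D, a lysosomal aspartyl protease related to renin, had 1.77 ± 0.22 SE (adjusted p = 0.000116), and Rnpep, aminopeptidase B, 1.40 ± 0.20 (0.00028). These 3 passed in every alternative run. Cma1, a mast cell chymase that in mouse can make angiotensin II, had −1.0 ± 0.31 SE (adjusted p = 0.0494), lost in 5 of 6 fits that left out a library of its groups (up to 0.188, without KO saline 2).

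With glycine in WT 2 of the 17 passed as higher, where 1.39% of all tested genes were called. They were Ctsa at 0.77 ± 0.14 SE (adjusted p = 0.0121) and Ctsd at 1.16 ± 0.22 (0.0153). Each was lost in 3 of 6 such fits (up to 0.059 without WT glycine 5, and 0.0757 without WT glycine 6). Their interactions, −1.34 ± 0.19 SE for Ctsa (adjusted p = 0.00443) and −1.98 ± 0.30 for Ctsd (0.00638), passed in every alternative run. In the other comparisons, glycine in KO and KO under glycine, edgeR called 0 of 17 and DESeq2 called 2 and 0. Before adjustment 3 and 2 of the 17 were below 0.05, against 1540 and 1919 of all 13928 tested genes. The macrophage marker sums given beside Ednrb were, like the mean levels of Ctsa and Ctsd, lowest in WT saline and highest in KO saline; the part of macrophages was not tested.

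The gene of renin, at the entry of the angiotensin system, and that of a receptor at its counter-regulatory side were near the detection limit. Ren1, renin, had at most 29 estimated counts in a library and 0 in 4. Mas1, a receptor for shortened angiotensin, had 20, 45, 9 and 28 counts in WT saline 1, WT glycine 4, KO saline 1 and KO glycine 4, and 0 in the other 8.

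Of 18 genes for peptides that these peptidases cleave, and their receptors, 15 were tested. For KO under saline 2 passed as lower, a share near the 11.3% of all tested genes called there. The median log2 fold change of the 15 was −0.95 for KO under saline, −1.25 for glycine in WT and 2.0 for the interaction. It was 0.74 for glycine in KO and 0.40 for KO under glycine. The medians over all tested genes lay between −0.02 and 0.02. Some of the 15 had large standard errors, such as Nppc at −4.29 ± 2.19 for glycine in WT. Medians of the 12 endothelial markers were −0.81 for KO under saline, −0.71 for glycine in WT and 0.78 for the interaction. They were 0.20 for glycine in KO and −0.14 for KO under glycine, and the part of endothelial cells was not tested. Adm, the vasodilator adrenomedullin, was at 44.5, 27.7 and 52.5 CPM in WT saline 1 to 3 and 19.3, 14.9 and 16.3 CPM in KO saline 1 to 3. Its log2 fold change was −1.30 ± 0.26 SE (adjusted p = 0.0039), with 2 of 9 other settings losing the call, up to 0.0586 with FPKM. Npr3, the natriuretic peptide clearance receptor, had −1.60 ± 0.46 SE (adjusted p = 0.0366), lost in 5 of 6 fits (up to 0.159, without KO saline 2). With glycine in KO 1 passed as higher, where 1.13% of all tested genes were called. Nppa, the atrial natriuretic peptide gene, was at 140, 48.2 and 108 CPM in KO saline 1 to 3 and 1110, 783 and 763 CPM in KO glycine 4 to 6. That is a log2 fold change of 3.16 ± 0.53 SE (adjusted p = 0.00861), passing in every alternative run. Beside it, 6 heart muscle markers summed to 496 to 809 CPM in KO saline and 1720 to 2369 CPM in KO glycine, and their part in it was not tested. In the other 3 comparisons 0 of 15 passed in edgeR or DESeq2. Before adjustment 4 were below 0.05 for glycine in WT, 3 for KO under glycine and 6 for the interaction. Of all 13928 tested genes, 1669, 1919 and 1823 were.

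Downstream of both receptor families, 33 genes of G protein signalling were tested. For KO under saline 4 passed as higher and 5 as lower, where 11.3% of all tested genes were called (median log2 fold change −0.01). Rgs2, which shortens Gq signals of angiotensin and endothelin receptors, was at 18.6, 36.7 and 16.7 CPM in WT saline 1 to 3 and 99.7, 100.01 and 110 in KO saline 1 to 3. That is a log2 fold change of 2.11 ± 0.26 SE (adjusted p = 0.000115). The kinase gene Prkcd had 1.41 ± 0.32 (adjusted p = 0.00925) and the arrestin gene Arrb2 1.16 ± 0.20 (0.0012). Rgs5, a pericyte-rich regulator of the same signals and itself one of 8 pericyte markers, was at 357, 325 and 278 CPM in WT saline 1 to 3 and 163, 118 and 96.1 CPM in KO saline 1 to 3. Its log2 fold change was −1.35 ± 0.24 SE (adjusted p = 0.00184). These 4 passed in every alternative run. Like the macrophage marker sums, the mean levels of Rgs2, Prkcd and Arrb2 were lowest in WT saline and highest in KO saline; the part of macrophages was not tested. The pericyte markers summed to 380 to 521 CPM in WT saline and 150 to 217 CPM in KO saline, and 5 of 8 passed as lower.

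The other 5 signalling calls under saline were each lost without single libraries. The receptor kinase gene Grk6 (log2 fold change 1.26 ± 0.38 SE, adjusted p = 0.0422) was lost in 5 of 6 fits, up to 0.237 without KO saline 2. Grk5, another such kinase gene (−1.33 ± 0.40, adjusted p = 0.0431), was lost in 5, up to 0.17 without WT saline 3. Rgs3 (−1.24 ± 0.36, adjusted p = 0.0378) and Rock2, a kinase gene of contraction (−0.76 ± 0.20, 0.0209), were lost in 4 each, up to 0.266 without WT saline 3 and 0.0982 without WT saline 2. Arhgef12, a guanine nucleotide exchange factor gene (−1.18 ± 0.30, adjusted p = 0.0177), was lost in 3, up to 0.0926 without KO saline 2. These 5 calls, and those of Cma1, Npr3 and Thbs1 in the other lists, were also lost in 3 to 7 of the 9 settings that kept all libraries of both groups. With glycine in WT 1 of 33 passed, where 1.39% of all tested genes were called. It was Rgs5 (−1.13 ± 0.24 SE, adjusted p = 0.031), lost in all 6 fits (up to 0.127, without WT glycine 6). In the other 3 comparisons, glycine in KO, KO under glycine and the interaction, edgeR called 0 and DESeq2 called 0, 1 and 3. Before adjustment 1, 3 and 7 of the 33 were below 0.05, against 1540, 1919 and 1823 of all 13928 tested genes.

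Of 20 genes known to respond to angiotensin II in vessels or cultured vascular cells, all were tested. For KO under saline 4 passed as higher and 2 as lower, where 11.3% of all tested genes were called (median log2 fold change 0.08). Spp1, osteopontin, was at 38.8, 62.5 and 46.8 CPM in WT saline 1 to 3, 164, 140 and 131 in WT glycine 4 to 6, 1332, 820 and 2559 in KO saline 1 to 3, and 501, 470 and 372 in KO glycine 4 to 6. No pair of groups overlapped. Its log2 fold change for KO was 4.99 ± 0.36 SE under saline (adjusted p = 1.11e-06) and 1.63 ± 0.31 under glycine (0.011). With glycine it was 1.55 ± 0.31 SE in WT (adjusted p = 0.0236) and −1.81 ± 0.31 in KO (0.0106). The interaction was −3.37 ± 0.44 SE (adjusted p = 0.002).

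Cybb, the catalytic subunit of the phagocyte NADPH oxidase, had 1.83 ± 0.19 SE for KO under saline (adjusted p = 3.43e-05) and 0.90 ± 0.19 under glycine (0.0188). Beside it, all 8 macrophage markers were higher in KO saline than in WT saline, by 1.48 to 2.26 on the log2 scale. Ptgs2, cyclooxygenase-2, had 1.73 ± 0.27 SE under saline (adjusted p = 0.000673), and Thbs1, thrombospondin-1, 1.43 ± 0.40 (0.0318), lost in 3 of 6 fits (up to 0.253, without KO saline 2). The matricellular genes Ccn1 (−1.30 ± 0.18 SE, adjusted p = 0.000303) and Ccn2 (−1.56 ± 0.25, 0.000779) were lower, beside 9 of 10 fibroblast markers that passed as lower. The mean levels of Spp1, Cybb and Ptgs2 were, like the macrophage marker sums, lowest in WT saline and highest in KO saline. For KO under glycine, where Spp1 and Cybb passed, 0 of the 8 macrophage markers did. Another 8 markers, of neutrophils, summed to 101 to 272 CPM in WT saline and 519 to 684 in KO saline. Under glycine they summed to 149 to 286 CPM in WT and 329 to 355 in KO. Of them 6 passed as higher in KO under saline and 0 under glycine. The part of these cell types was not tested. Lox, the collagen and elastin crosslinking enzyme, was higher with glycine in both genotypes, at 1.32 ± 0.25 SE in WT (adjusted p = 0.0164) and 1.25 ± 0.25 in KO (0.0249). The chemokine gene Ccl2 was higher with glycine in WT at 1.28 ± 0.24 SE (adjusted p = 0.0167). Leaving out single libraries ended Lox in 3 of 6 fits in WT and 5 of 6 in KO, Ccl2 in 2, Spp1 in 4 with glycine in WT, 2 with glycine in KO and 2 for KO under glycine, and Cybb under glycine in 4. With only its groups in the model, the WT glycine calls of Ctsa, Ctsd, Ccl2 and Lox were lost too (adjusted p 0.0746 to 0.106). The other calls of these angiotensin-responsive genes between genotypes under saline, and the Spp1 interaction, passed in every alternative run.

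Likeness across the 12 libraries was measured by Pearson's r of log2 CPM among 9208 genes. Group differences and marker levels enter these values, and they say nothing of function. Ednra was most like Pdpn and Rhoj (r = 0.967 for both) and Mfap5 (0.957). Ednrb was most like Tmem106a (r = 0.936), Tmem273 (0.933) and Eif4e2 (0.931). Ece1 was most like Tcf15 (r = 0.945), Tmem255b (0.943) and Inafm2 (0.939). For Edn1 the nearest genes were Ankrd29 (r = 0.845), Tnc (0.805) and Slk (0.798), and for Ace Cachd1 (0.871), Mtch1 (0.868) and Map6 (0.867). For Mme they were Smpd4 (r = 0.910), Slc8a1 (0.877) and Plxna4 (0.859), and for Enpep Atg13 (0.862), Pqbp1 (0.841) and Clu (0.830). For Agtr1a they were Fam193b (r = 0.970), Leng1 (0.884) and Bbs4 (0.869), and for Agt Yif1b (0.872), Ccdc90b (0.871) and Cyp1b1 (0.849).

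In the GENCODE annotation of GRCm38, exons of 3 of the 10 genes share bases with a gene on the opposite strand: Edn1 with Gm47118 (35 bases), Ednra with 4933431K23Rik (91) and Ace with Gm11651 (295). No source used here says whether counting used strand, and reads over these bases cannot be told apart.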

How the data were processed

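The deposited table holds an estimated count (RSEM expected count) and an FPKM value made by the authors for each of 22013 genes in 12 libraries. Per the submitters' processing notes the tools were RSEM, Bowtie2 2.2.8, HISAT2 2.1.0 and StringTie 1.3.1; the genome build is not given in the sources used here. Counts were rounded, filtered with filterByExpr (13928 genes) and scaled by TMM. One edgeR 4.0.16 quasi-likelihood model of the 4 groups (R 4.3.3) gave 5 contrasts, with Benjamini-Hochberg adjustment over 13928 genes and a threshold of 0.05. Fold changes are log2 with their standard error. Alternatives were RLE size factors, DESeq2 1.42.0, no filter, at least 1 CPM in 6 libraries, no mitochondrially encoded genes, limma-trend (limma 3.58.1) on log2(FPKM + 1) and log2(FPKM + 0.1), each library left out, the compared groups alone, and a replicate block. The procedure was tested on simulated data.

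The 10 genes and the gene lists were chosen with earlier results of these data known. Named are all 10, every gene of the 5 other lists that passed in a contrast, the most abundant gene of the 2 pathway lists, Ren1, Agtr1b and Mas1, and the 3 genes most like each of the 10 with at least 1 CPM (prior count 2), among genes with a mean of at least 5 CPM and no predicted symbol. Markers are named only beside a result. A further gene, left out of this list, is not reported here.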

Additional observations from a re-analysis of the deposited data

Results flagged for a closer look

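The glycine effect differed between genotypes, by the interaction test of edgeR, for 4 of the genes named. Of all tested genes, 1.12% were called. Ednrb was 1 of the 10 genes described. Ctsa and Ctsd were 2 of 17 tested genes of the other angiotensin list, and Spp1 was 1 of 20 angiotensin-responsive genes. None passed in the other lists. Ednrb had an interaction of −1.89 on the log2 scale, Ctsa of −1.34, Ctsd of −1.98 and Spp1 of −3.37. In each of the 4 genes the level rose with glycine in WT; with glycine in KO only Spp1 passed in edgeR, and it fell (DESeq2 also called Ctsa and Ctsd). All 4 were highest in KO saline. The Ednrb call was lost in 9 of 12 fits that left out a library, while those of Ctsa, Ctsd and Spp1 passed in every alternative run. Of 8 macrophage markers, 7 also passed with a negative interaction, and the part of macrophages was not tested. Groups of 3 libraries are too small for the check on single outlying samples.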

How the results depend on the processing

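Of 27 fold changes printed for the 10 genes, 516 of 553 recomputed values kept direction and side of the threshold, 26 lost the call, 2 gained it and 9 changed sign. The number of the 10 genes passing for glycine in WT was 2 with DESeq2, 0 with a model of those 2 groups alone and 0 to 1 with a library left out. For KO under glycine it was 0 with both FPKM fits and 0 to 1 with a library left out. For the interaction it was 2 with DESeq2 and 0 to 1 with a library left out. For KO under saline it was 2 with both FPKM fits and otherwise 3, and for glycine in KO 0 in every setting run. Ednra with glycine in WT turned to 0.42 and 0.51 with FPKM (pseudocounts 1 and 0.1) and ran from −0.29 to 0.21 with a library left out. Over all genes the FPKM scale moved the median by 0.31 and 0.44 in that comparison, and the cause was not tested. With a library left out, Edn1 for KO under saline ran from −0.81 to 0.22 and Ednrb for KO under glycine from −0.059 to 0.19. Of 23 fold changes not printed, none passed in any setting run. The replicate block (numbers 1 to 3 shared under saline, 4 to 6 under glycine) left 0 of the 10 genes for KO under glycine (Ednra −1.59, adjusted p = 0.080) and 0 for the interaction (Ednrb −2.00, 0.0502). Same-numbered libraries did not deviate together (correlations −0.034 to 0.019), so the numbers do not pair the samples. A level under 0.118 to 0.279 CPM, that of 3 counts, was not detectable; Agt, Agtr1a and Agtr2 had 0 counts in 1 to 8 libraries, Agtr1a in the deepest.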
